A study of Homo sapiens with 9 samples.

Results

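The genes described here were the 4 members of the inhibitor of DNA binding family, *ID1*, *ID2*, *ID3* and *ID4*, and the repressor gene *GFI1*, 5 of the 60662 genes in the expression table. They were chosen by measured values of these libraries, since *ID4* was nearly absent and *GFI1* and *ID1* were lower in *DYRK1A* KO cells, so every contrast of KO with WT is given for them as a description and without a test. The contrast between the KO clones was not used to choose them and was tested. RNA-seq had been made of SET2 cells, a human cell line from an acute myeloid leukaemia that followed a myeloproliferative neoplasm, with 3 libraries of WT cells, 3 of the *DYRK1A* KO clone 11H1 and 3 of the *DYRK1A* KO clone 14B5, all without drug treatment. Each KO clone had been grown from a single sorted cell after delivery of Cas9 with a guide to *DYRK1A*, and no clone with an unedited *DYRK1A* is among the groups, so the KO, the cloning step and the identity of the founder cell cannot be told apart within either clone. No source says whether the 3 libraries of a group came from separate cultures, and the p-values then measure only the spread between these libraries. The fit of KO against WT counts each library of both clones as a separate sample, so its p-values are no test over independent clones.

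The ID proteins carry a helix-loop-helix (HLH) domain, with which proteins pair, but lack the basic region that touches DNA. They pair with the E proteins, the broadly expressed HLH transcription factors *TCF3*, *TCF4* and *TCF12*, and keep them from binding their E-box sites, which in blood cells affects the choice between lineages and the exit from the cell cycle. BMP signalling through SMAD1 and SMAD5 is a well-known inducer of ID genes. GFI1 is a zinc-finger repressor of stem cells, granulocyte precursors and lymphocytes that recruits a histone demethylase complex through its SNAG domain, and GFI1B is its close relative in the erythroid and megakaryocyte lineages.

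The 4 ID genes lie on different chromosomes. In GRCh38 with the GENCODE annotation, *ID1* (ENSG00000125968.9) lies at chr20:31605283-31606515 on the plus strand, *ID2* (ENSG00000115738.10) at chr2:8678845-8684453 on the plus strand, *ID3* (ENSG00000117318.9) at chr1:23557918-23559794 on the minus strand and *ID4* (ENSG00000172201.12) at chr6:19837386-19840684 on the plus strand. *GFI1* (ENSG00000162676.12) lies at chr1:92474762-92486876 on the minus strand. Their sequences are shown because the reads that separate the family members must come from where the genes differ. The stretch below is the 75 bases of coding exon over which the 4 ID genes were most alike, within the part that codes for the HLH domain, and capitals mark the 46 positions at which all 4 carry the same base. The sequences are of GENCODE transcripts, 5′ to 3′ on the coding strand, from chr20:31605635-31605709 for *ID1*, chr2:8682323-8682397 for *ID2*, chr1:23559180-23559254 for *ID3* and chr6:19837999-19838073 for *ID4*, and no intron interrupts any of them.
ID1: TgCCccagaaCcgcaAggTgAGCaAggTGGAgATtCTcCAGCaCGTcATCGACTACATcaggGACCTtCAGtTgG
ID2: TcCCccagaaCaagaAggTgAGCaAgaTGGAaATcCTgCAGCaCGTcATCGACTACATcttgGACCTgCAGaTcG
ID3: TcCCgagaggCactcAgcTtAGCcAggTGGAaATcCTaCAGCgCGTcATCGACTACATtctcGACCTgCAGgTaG
ID4: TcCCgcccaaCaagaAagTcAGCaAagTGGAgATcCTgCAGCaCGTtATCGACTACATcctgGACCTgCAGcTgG
In this window *ID2* and *ID4* were identical at 84.0% of positions, the most of any pair, and *ID1* and *ID3* at 66.7%, the least. Over the aligned coding sequence the 6 pairs were 60.8% to 64.8% identical. The longest run of identical bases that any pair of the 4 transcripts shared was 21 bases, between *ID1* and *ID2*. All 45 deposited values of the 5 genes, 1 for each gene and library, were whole numbers, so none of them holds a fraction of a read that RSEM shared out between genes.

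The promoters of *ID2*, which was higher in KO cells, and of *ID4*, which was nearly absent there, are set side by side next, as the 100 bases before the RefSeq transcript start in GRCh38.p14, at chr2:8681956-8682055 for *ID2* and chr6:19837270-19837369 for *ID4*, both on the plus strand. Capitals mark the TATAAA box and the CCAAT box, each searched on both strands.
ID2 promoter: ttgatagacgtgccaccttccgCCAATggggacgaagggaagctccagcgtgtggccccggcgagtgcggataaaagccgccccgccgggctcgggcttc
ID4 promoter: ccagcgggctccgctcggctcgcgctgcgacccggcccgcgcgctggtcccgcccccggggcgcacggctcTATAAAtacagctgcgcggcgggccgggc
In promoters of 300 bases around the start, *ID1* and *ID4* held TATAAA, which 11.5% of 35116 RefSeq promoters of that length hold, and the promoters of *ID2*, *ID3* and *GFI1* did not. CCAAT was found 3 times in the *ID2* promoter, once each in those of *ID1* and *ID4* and in 1 of 3 *GFI1* promoters, against 34.6% of all promoters with a match. The E-box letters CANNTG occurred in the promoters of *ID2* and *ID4* and in 2 of 3 of *GFI1*, and 68.7% of all promoters hold them. These matches describe letters only.

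Before any contrast, the libraries stood as follows. They held 32347779 to 60272245 expected counts, so that 3 counts in a library were worth 0.0502 to 0.0913 CPM. This unit divides the counts of a gene by the TMM-scaled total of its library and multiplies by 1000000. SET2 cells expressed the megakaryocyte marker *ITGA2B* and the fetal globin *HBG2*, and of 9 granulocyte and monocyte markers *LYZ* was the highest. The summed level of 11 megakaryocyte markers ranged from 1127 to 1135 CPM in WT, 757 to 782 CPM in 11H1 and 673 to 695 CPM in 14B5. Of these, *PF4* averaged only 0.509 CPM in WT and was at 0 in both clones. The granulocyte and monocyte markers summed to 199.7 to 203 CPM in WT, 104 to 112 CPM in 11H1 and 114 to 126 CPM in 14B5. In the same order, the 10 erythroid markers summed to 13342 to 15231, 12718 to 13795 and 14672 to 16143 CPM. The 7 lymphoid markers summed to 23.8 to 26.3, 19.1 to 21.0 and 11.9 to 14.0 CPM. Of the 9 granulocyte and monocyte markers, 3 in WT and 2 in each clone averaged over 1 CPM. Of the 7 lymphoid markers, 2 did so in WT, 2 in 11H1 and 1 in 14B5. The lymphoid sum was mostly *CD79A*, with means of 22.2 CPM in WT, 16.04 in 11H1 and 12.2 in 14B5. *CD3D* averaged 0.831, 3.02 and 0.342 CPM in the same order. *MS4A1* averaged only 0.0407 CPM in WT and was at 0 in both clones. Mitochondrial genes took 3.54% to 6.03% of counts in WT, 7.23% to 7.39% in 11H1 and 3.30% to 3.92% in 14B5. The part of these differences in the results on the ID genes and *GFI1* was not tested, and in such bulk libraries fewer cells of a type and less RNA per cell cannot be told apart.

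The ID family as a whole was made up mostly of *ID2*, and its make-up differed between the groups. With each level divided by the length of the gene's exons, the 4 ID genes summed to 62.3 ± 1.92 CPM per kb in WT, 65.2 ± 1.90 in 11H1 and 89.1 ± 5.47 in 14B5 (mean ± SD, n = 3 libraries each). *ID2* supplied 64.2% ± 0.767 of that sum in WT, 78.5% ± 1.47 in 11H1 and 82.4% ± 0.279 in 14B5. The order of levels per length in WT was *ID2* at 39.9 CPM per kb, *ID1* at 16.2, *ID4* at 4.17, *GFI1* at 2.43 and *ID3* at 1.97, each further from its neighbours than its own spread. In both clones *ID2* and *ID1* kept the top places, but the order below them was *ID3* at 1.47 and *GFI1* at 0.723 in 11H1 and *ID3* at 2.11 and *GFI1* at 0.624 in 14B5, with *ID4* last.

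**Figure D1:**
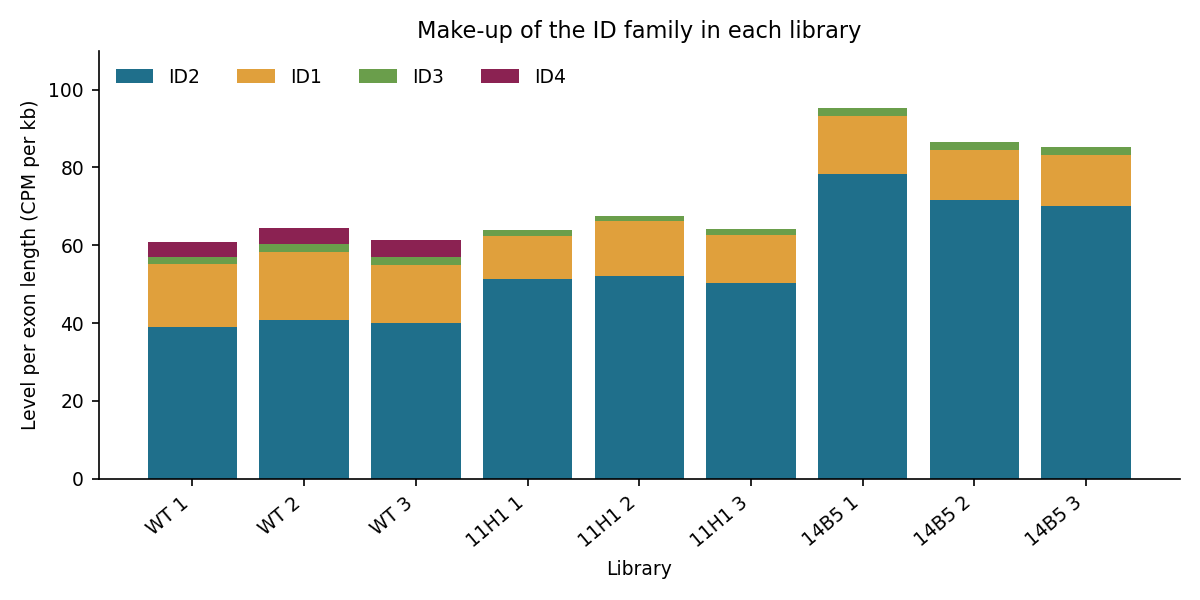
Level per exon length (CPM per kb, vertical axis) of *ID2*, *ID1*, *ID3* and *ID4*, stacked, in each of the 9 libraries. *ID2* took 64.2% of the WT bars, 78.5% of the 11H1 bars and 82.4% of the 14B5 bars on average, and the *ID4* segment of the WT bars, 6.70% of them, was not visible as more than a line in the KO bars.

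*ID1* is the member best known as a direct target of BMP signalling. Its share of the family was 26.0% ± 1.37 in WT, 19.2% ± 1.68 in 11H1 and 15.2% ± 0.446 in 14B5. The ratio of *ID2* to *ID1* per length was 2.48 ± 0.163 in WT, 4.12 ± 0.443 in 11H1 and 5.41 ± 0.178 in 14B5. Without *ID2*, the other ID genes summed to 22.3 ± 1.10, 14.0 ± 1.30 and 15.7 ± 1.11 CPM per kb, and only with *ID2* counted was the sum of the clones as high as that of WT.

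*ID4*, which among other tissues is expressed in the nervous system and is often silenced by methylation in leukaemia, was the gene with the widest gap between the groups. It had 454, 455 and 434 counts in the WT libraries, 3, 1 and 3 in those of 11H1 and 0, 1 and 0 in those of 14B5. In CPM this was 9.23, 9.54 and 10.5 in WT, 0.0550, 0.0304 and 0.0912 in 11H1 and 0, 0.0167 and 0 in 14B5. All KO libraries were thus at or below 3 counts, the limit that a count of 0 allows, and all WT libraries were far above it. Pooled over libraries, the rate in WT was 343 times that in KO cells (1343 counts against 8), with a 95% exact interval of 173 to 796 that covers counting error only. Against 11H1 alone the ratio was 167 (80.9 to 417, on 7 counts) and against 14B5 alone 1572 (282 to 62134, on 1 count), and since both clones lie at the limit no fold between them is given.

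*GFI1* showed the next widest gap. It had 7.95, 8.09 and 8.07 CPM in WT, 2.11, 2.77 and 2.28 CPM in 11H1 and 2.42, 2.04 and 1.72 CPM in 14B5. The KO libraries of both clones overlapped with each other and lay well below those of WT, whose SD was only 0.0752 CPM. The log2FC against WT was −1.76 in 11H1 and −1.99 in 14B5. Every library held at least 75 counts of *GFI1*, far above the limit that a count of 0 allows.

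*ID1* was lower in KO cells by far less. Its levels were 19.8, 21.5 and 18.5 CPM in WT, 13.8, 17.3 and 15.3 CPM in 11H1 and 18.4, 15.8 and 16.1 CPM in 14B5. The KO libraries all lay below the lowest of WT, although the highest of 14B5 lay only just below it. The log2FC was −0.37 in 11H1 and −0.27 in 14B5, and −0.31 (SE 0.0960) with both clones as a single group.

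*ID2*, a member with broad expression in haematopoietic cells and a role in lymphoid and natural killer lineages, went the other way. It stood at 86.1, 90.2 and 88.0 CPM in WT, 113, 115 and 111 CPM in 11H1 and 173, 158 and 155 CPM in 14B5. The 3 groups did not overlap, with WT lowest and 14B5 highest. Against WT the fold was 1.29 in 11H1 and 1.82 in 14B5 (log2FC 0.36 and 0.86). The antisense gene *ID2-AS1* overlaps *ID2*, at chr2:8666636-8681863, and had 1.64 to 2.24 CPM in WT, 2.65 to 3.70 CPM in 11H1 and 2.49 to 2.68 CPM in 14B5. The clones lay above WT for *ID2-AS1* too (log2FC 0.65 with both clones together, edgeR adjusted p = 0.0219). Since the sources used here disagree on the library kit, it is uncertain whether the counting kept the strands apart.

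*ID3* was the member for which KO and WT overlapped. Its levels were 3.40, 3.63 and 3.60 CPM in WT, 2.71, 2.25 and 2.98 CPM in 11H1 and 3.72, 3.95 and 3.72 CPM in 14B5. All libraries of 11H1 lay below those of WT and all of 14B5 above them, with log2FC of −0.41 and 0.09, which left −0.13 (SE 0.183) for both clones together. The depth behind it was the lowest of the members that KO cells expressed, 74 to 236 counts per library.

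**Figure D2:**
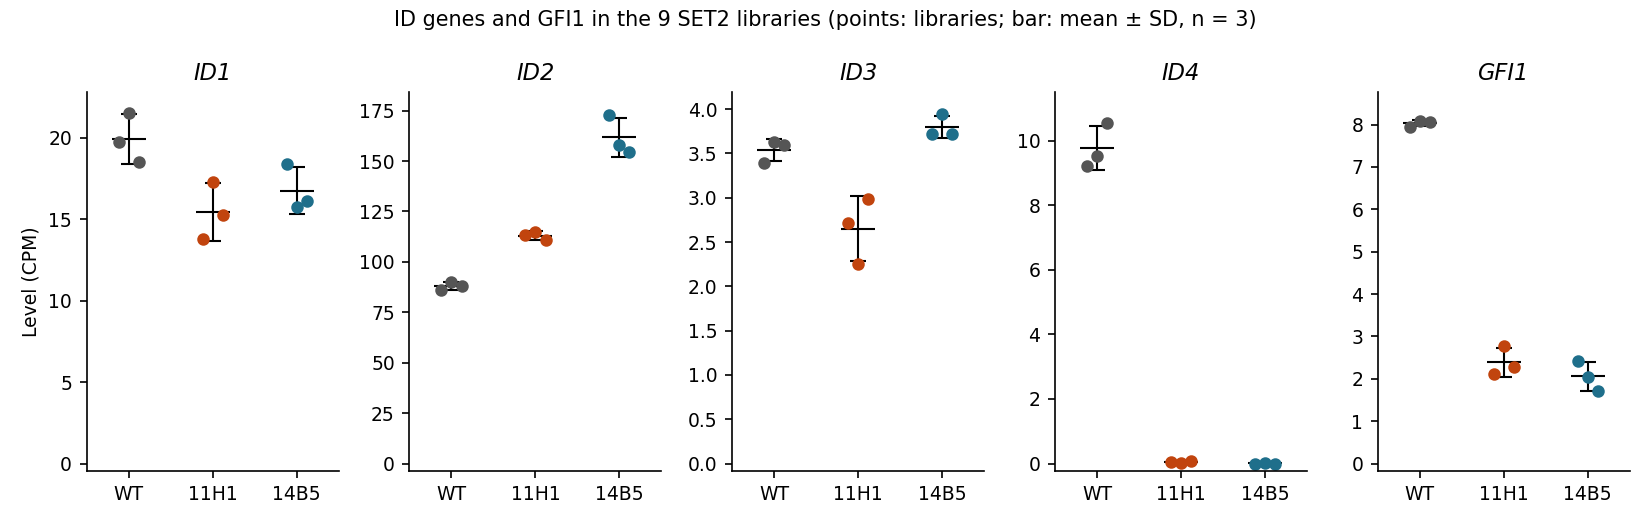
Level (CPM, vertical axis starting at 0 and scaled to each gene) of the 4 ID genes and *GFI1* in 3 WT, 3 11H1 and 3 14B5 libraries, with the mean and SD of each group as bars. The *ID4* points of both clones lie at or next to 0, the *GFI1* points of the clones lie between 1.72 and 2.77 CPM, the *ID2* points of the 3 groups are separate, and the *ID3* points of 11H1 lie below those of WT and 14B5.

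Counted over the members, the 6 KO libraries lay all below the 3 WT libraries for *ID1*, *ID4* and *GFI1* and all above them for *ID2*, 4 of 5 genes against 36.6% of the 17080 genes tested. At an adjusted p under 0.05 in edgeR's quasi-likelihood test, 32.0% of those genes were called in KO against WT, 64.6% in 11H1 against WT and 53.5% in 14B5 against WT. Nothing is read from the members' own counts here, because these contrasts chose them.

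The contrast between the clones asks whether cells with the same edited gene carry the same levels of these genes. *ID2* was lower in 11H1 than in 14B5, with a fold of 0.701 (log2FC −0.51, SE 0.0496, adjusted p = 3.34e-06 by edgeR). *ID3* was lower in 11H1 by the same log2FC, −0.51 (SE 0.130, adjusted p = 0.00457 by edgeR). For *ID1* and *GFI1* the difference was within the spread between libraries, with a log2FC of −0.12 for *ID1* (SE 0.0867, edgeR adjusted p = 0.260) and of 0.22 for *GFI1* (SE 0.172, edgeR adjusted p = 0.287), neither of which shows that the clones were alike. *ID4* did not pass the filter on low counts for this contrast and has no value in the fit.

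Thus 2 of the 4 members tested were called between the clones, where 63.7% of 16352 genes were, a share of the members that is not above the background. Of the 4 members in the fit, *ID2* and *ID3* had clone libraries that did not overlap, as for 68.7% of all genes tested. An exact permutation test over the 6 libraries, two-sided, gave p = 0.1 for both *ID2* and *ID3*, the smallest that 3 libraries against 3 can give, and p = 0.4 for both *ID1* and *GFI1*. For *ID4* the exact permutation test also gave p = 0.1, on 1 to 3 counts per library in 11H1 and 0 to 1 in 14B5, all at or below the limit that a count of 0 allows, so no difference is read from it. The mitochondrial share of 11H1 exceeded that of 14B5 in every library, and its part in these differences was not tested.

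Among the partners that the ID proteins act on, none of the 3 E protein genes passed the test between KO and WT. *TCF3* had 85.5 ± 1.20 CPM in WT, 85.1 ± 4.39 in 11H1 and 99.3 ± 2.49 in 14B5, and its log2FC between KO and WT was 0.11 (edgeR adjusted p = 0.328), although it was higher in 14B5 than in WT (log2FC 0.20, adjusted p = 0.00339) and lower in 11H1 than in 14B5 (log2FC −0.22, adjusted p = 0.00186). *TCF4* had 31.7 ± 1.41, 33.0 ± 0.527 and 30.3 ± 1.91 CPM and *TCF12* 263 ± 24.6, 261 ± 7.41 and 271 ± 18.3 CPM, with adjusted p = 0.999 and adjusted p = 0.900 between KO and WT in edgeR's test. In CPM per library, the lineage HLH factor *TAL1*, which pairs with E proteins at erythroid genes, stood at 239, 241 and 249 in WT, 328, 342 and 329 in 11H1 and 313, 313 and 305 in 14B5. No KO library overlapped with WT, and *TAL1* rose in KO cells (log2FC 0.40, adjusted p = 0.000451). *LDB1*, the adaptor of the TAL1 complex, rose too (log2FC 0.29, adjusted p = 0.00799), whereas the LIM-domain gene *LMO4* fell (log2FC −1.05, adjusted p = 2.64e-06), as did the LDB1-binding gene *SSBP3* (log2FC −0.34, adjusted p = 0.000542). These were the 4 genes called of 14 tested from a list of 17 E proteins and genes of the blood HLH complex, where 32.0% of all genes were called, with a median log2FC of −0.01 against 0.02 over all genes tested.

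Genes reported as targets of E proteins moved in both directions. Of 26 listed, 18 were tested between KO and WT and 9 were called, 4 higher and 5 lower, where 32.0% of all genes were called, with a median log2FC of −0.16 against 0.02 over all genes. Each clone alone had 12 of 18 called against WT, where 64.6% of all genes were called in 11H1 and 53.5% in 14B5. The cell cycle inhibitor *CDKN1A*, named here, like the other genes of this paragraph, after its values were seen, had 6.85, 7.48 and 7.00 CPM in WT, 30.7, 31.2 and 28.9 CPM in 11H1 and 21.3, 23.5 and 22.6 CPM in 14B5. It rose by a log2FC of 1.89 (SE 0.150, edgeR adjusted p = 1.24e-05) without overlap between the groups. *SOCS3*, a feedback inhibitor of cytokine signalling, rose by 0.78 on the log2 scale. The Notch target *HES1* fell by 0.73 and *CD79A*, a part of the B cell receptor, fell by 0.66. *CDKN1A* is also a reported GFI1 target and stands in both lists.

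Upstream of the ID genes, the receptors and SMAD proteins of the BMP pathway were lower in KO cells wherever they were called. Of 20 listed genes 17 were tested between KO and WT, 10 fell and 0 rose, where 32.0% of all genes were called in either direction, with a median log2FC of −0.66 against 0.02 over all genes. The count was 6 without WT replicate 1 and 6 without WT replicate 2. Calls over all genes also fell in these fits, from 5471 to 3739 and 3677. In 11H1 10 of 15 tested genes fell and 0 rose, a share called near the 64.6% of all genes. In 14B5 13 of 16 fell and 1 rose, where 53.5% of all genes were called, and the gene that rose was *SMAD4*, the partner shared with TGF-beta signalling (log2FC 0.35 in 14B5, adjusted p = 0.000591). *SMAD4* was not called between KO and WT (log2FC 0.16, adjusted p = 0.410 by edgeR).

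*SMAD1*, a main carrier of the BMP signal to the nucleus, had the largest fall of the listed genes that averaged 1 CPM or more. It had 11.1, 11.6 and 12.4 CPM in WT, 2.46, 2.28 and 2.89 CPM in 11H1 and 1.60, 1.86 and 1.58 CPM in 14B5, a log2FC of −2.48 (SE 0.184, edgeR adjusted p = 7.91e-06). The activin and BMP type II receptor gene *ACVR2A* fell by 1.29 on the log2 scale, from 2.88 ± 0.339 CPM in WT to 1.29 ± 0.0562 in 11H1 and 1.06 ± 0.0994 in 14B5. The inhibitory SMAD genes, which BMP and TGF-beta signals themselves induce, fell as well. *SMAD6* went from 19.7 ± 0.296 CPM in WT to 14.5 ± 0.827 in 11H1 and 7.05 ± 0.199 in 14B5 (log2FC −0.88, adjusted p = 0.0378), and was higher in 11H1 than in 14B5 (log2FC 1.05, adjusted p = 1.74e-07). *SMAD7* went from 1.89 ± 0.145 to 1.24 ± 0.481 and 0.813 ± 0.0522 CPM (log2FC −0.89, edgeR adjusted p = 0.0264). *SMAD5*, *BMPR1A* and the co-receptor gene *ENG*, named after their values were seen, fell by 0.61, 0.66 and 0.74 on the log2 scale.

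The BMP ligands and their extracellular inhibitors split evenly. Of 19 listed, 10 were tested and 6 called between KO and WT, 3 higher and 3 lower, where 32.0% of all genes were called. Against WT, 6 of 10 were called in 11H1 and 7 of 10 in 14B5, where 64.6% and 53.5% of all genes were. *BMP6* was at 25.8, 29.0 and 30.0 CPM in WT, 14.2, 14.0 and 16.8 CPM in 11H1 and 19.2, 18.1 and 17.0 CPM in 14B5, and fell by 0.77 on the log2 scale, while *BMP8B* rose by 0.88. Of the inhibitors, which hold ligands away from their receptors, *FST* fell by 2.65 on the log2 scale and *CHRD* rose by 0.80 (all 4 genes named after their values were seen). The 16 genes listed for the TGF-beta branch had 3 calls among 13 tested, 2 higher and 1 lower, against the same 32.0%, with a median log2FC of −0.02.

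Most of the genes listed as partners of GFI1 did not pass the test between KO and WT. *GFI1B* was at 203, 207 and 193 CPM in WT, 208, 214 and 202 CPM in 11H1 and 197, 206 and 199.6 CPM in 14B5, and these libraries overlapped throughout (log2FC 0.02, SE 0.0513, edgeR adjusted p = 0.751). Of 21 partners and corepressors, all tested, 4 were called between KO and WT, 3 higher and 1 lower, where 32.0% of all genes were called, with a median log2FC of 0.09 against 0.02 over all genes. The count was 2 without WT replicate 1 and 2 without WT replicate 2, fits in which calls over all genes fell from 5471 to 3739 and 3677. The deacetylase gene *HDAC3* fell from 75.9 ± 2.32 CPM in WT to 42.8 ± 2.62 in 11H1 and 46.7 ± 3.57 in 14B5 (log2FC −0.76, adjusted p = 3.25e-05). The histone methyltransferase gene *SUV39H1* rose (log2FC 0.46, adjusted p = 0.000436), and *RCOR3* and *CTBP2*, corepressors, rose by 0.22 and 0.21 on the log2 scale. *KDM1A*, the demethylase that the SNAG domain binds, had 277 ± 4.44, 270 ± 1.31 and 302 ± 8.72 CPM (log2FC 0.04, adjusted p = 0.636 between KO and WT). In 11H1 alone 15 of the 21 were called against WT, where 64.6% of all genes were, and in 14B5 alone 7, where 53.5% of all genes were. Whether the clones differ in these shares was not tested.

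**Figure D3:**
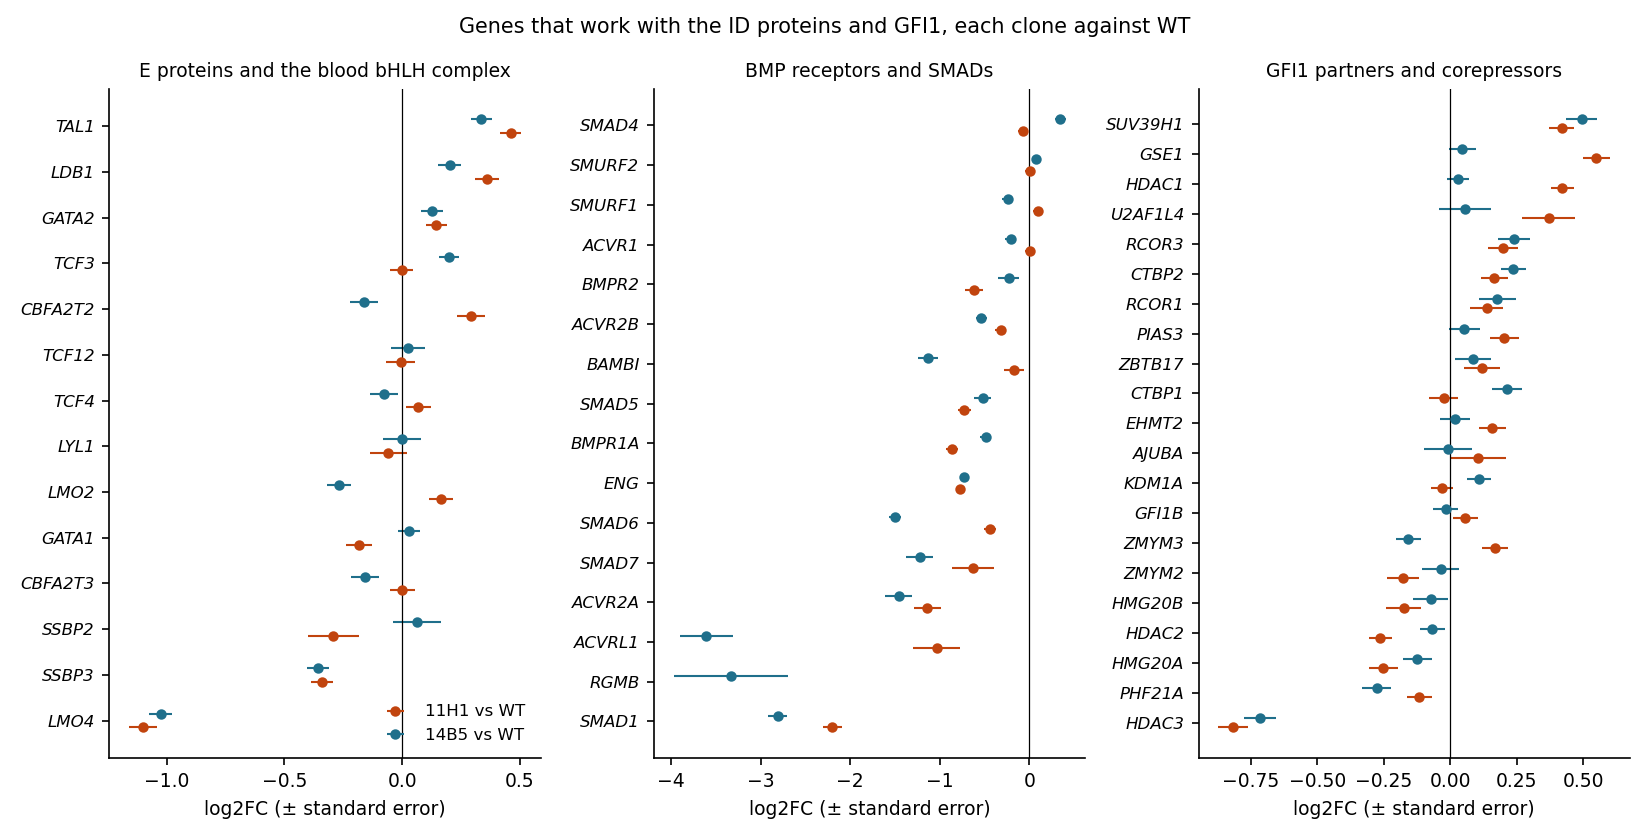
log2FC against WT (horizontal axis, bars are standard errors) of 11H1 and of 14B5 for the listed genes tested in at least 1 clone, in 3 panels. In the panel of BMP receptors and SMADs most points lie left of 0, with *SMAD1* among the lowest, whereas the E proteins *TCF3*, *TCF4* and *TCF12* and the GFI1 relative *GFI1B* lie near 0. Both clones were compared with the same 3 WT libraries.

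Genes reported as GFI1 targets were called in both directions too. Of 19 listed, 15 were tested between KO and WT and 11 were called, 6 higher and 5 lower, where 32.0% of all genes were called, with a median log2FC of 0.16 against 0.02 over all genes. By clone, 10 of 14 were called in 11H1 and 12 of 15 in 14B5 against WT, where 64.6% and 53.5% of all genes were. Named after their values were seen, *HOXA9*, a homeobox gene of stem and leukaemia cells, was at 18.2, 18.6 and 18.1 CPM in WT, 21.3, 25.1 and 24.2 CPM in 11H1 and 31.2, 28.6 and 29.6 CPM in 14B5, and rose by a log2FC of 0.54 (edgeR adjusted p = 0.00612). Its cofactor gene *MEIS1* went the other way, from 9.08 ± 0.258 CPM in WT to 6.45 ± 0.209 in 11H1 and 4.08 ± 0.176 in 14B5 (log2FC −0.79, edgeR adjusted p = 0.0108). The myeloid and lymphoid factor gene *SPI1* fell by 0.74 on the log2 scale, and *CDKN1B*, another cell cycle inhibitor, rose by 0.54. The granulocyte elastase gene *ELANE*, a classic target of GFI1 repression, had 0.0203, 0 and 0.0486 CPM in WT, 0.0733, 0.0913 and 0.0304 CPM in 11H1 and 0.993, 0.636 and 0.957 CPM in 14B5. The 14B5 libraries held 38 to 55 counts of *ELANE* and the other libraries 0 to 4, so 11H1 and WT lay near the limit that a count of 0 allows.

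The genes around each member were examined for their own levels. Around *ID4*, 3 expressed protein-coding genes lay within 1000000 bases, all downstream. *MBOAT1*, at 375013 bases, fell in KO cells (log2FC −0.69), *E2F3*, at 564520 bases, rose (log2FC 0.28), and *CDKAL1*, at 697071 bases, had a log2FC of −0.01. None came near the gap seen for *ID4*. Around *GFI1*, 5 of 11 neighbours were called, 3 lower and 2 higher, where 32.0% of all genes were called between KO and WT, with log2FC from −1.02 for *FNBP1L* to 0.52 for *CCDC18*. Its nearest neighbour downstream, *GLMN*, at 187889 bases, fell by 0.54 on the log2 scale.

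Around *ID1*, 6 of 12 neighbours were called, 4 higher and 2 lower, where 32.0% of all genes were called. The survival gene *BCL2L1*, at 118706 bases downstream, fell by 0.20 on the log2 scale, and the mitotic spindle gene *TPX2*, at 133988 bases, rose by 0.25. Of the 7 neighbours of *ID2*, 1 was called, *KIDINS220*, which rose by 0.30. Of the 18 neighbours of *ID3*, 6 rose and 0 fell. The share called in either direction was near the 32.0% of all genes, of which 14.3% were called higher and 17.7% lower.

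**Figure D4:**
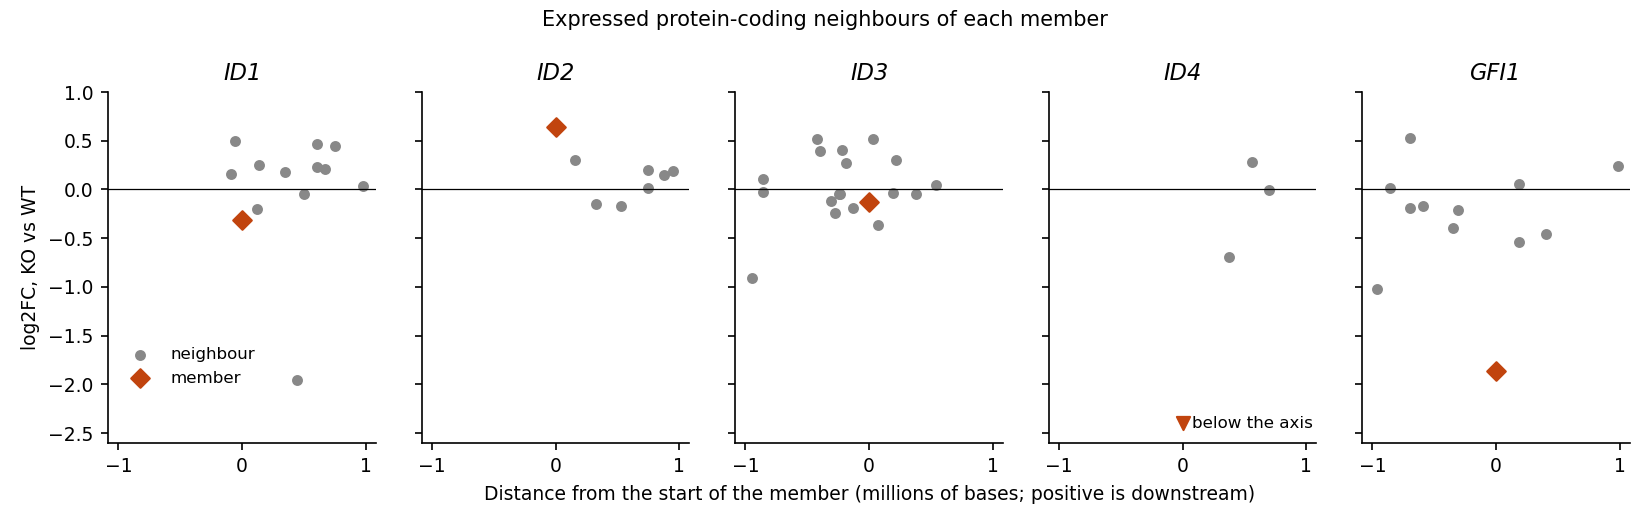
log2FC between KO and WT (vertical axis) of the expressed protein-coding genes within 1000000 bases of each member, by distance from the member's start (horizontal axis, downstream to the right). Circles are neighbours and diamonds the members, and *ID4* is drawn as a triangle at the lower edge because its value lies below the axis. The neighbours of *ID4* lie between −0.69 and 0.28 and those of *GFI1* between −1.02 and 0.52.

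The genes whose levels over the 9 libraries were most like those of a member differed for each member. The likeness is Pearson's r of log2 CPM over 9 libraries that fall into 3 groups, among 11930 other protein-coding genes that averaged 1 CPM or more, and is a description of shared group patterns. For *ID4* the 5 genes most alike were *IGF2* (r = 0.9995), *SYTL3*, *MAP3K15*, *FAM107B* and *ITGAM*, and 557 genes reached r of 0.95. *IGF2* was at 7.58 CPM in WT, 0.741 in 11H1 and 0.519 in 14B5. For *GFI1* they were *SCML1* (r = 0.995), *FAM168B*, *ADCYAP1*, *SEZ6L2* and *MPIG6B*, with 457 genes at r of 0.95 or more. *MPIG6B*, a megakaryocyte receptor gene, was at 246 CPM in WT, 126 in 11H1 and 119.9 in 14B5.

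For *ID2* the genes most alike were *PIM2* (r = 0.997), *SLC7A8*, *VPS37B*, *FECH* and *FBXO7*, with 316 genes at r of 0.95 or more. *FECH*, the last enzyme of haem synthesis, was at 82.0 CPM in WT, 99.0 in 11H1 and 132 in 14B5. For *ID3* they were *ANXA4* (r = 0.982), *TEX9*, *AFF2*, *ZFYVE28* and *SPIRE1*, and 19 genes reached 0.95. For *ID1* they were *C11orf71* (r = 0.957), *ISG15*, *FAM3C*, *ACOX3* and *LZTS3*, and 2 genes reached 0.95. Among the members themselves r was 0.979 between *ID4* and *GFI1* and −0.871 between *ID2* and *ID4*, over libraries that share their group.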

How the data were processed

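The authors deposited a table of RSEM expected counts for 9 libraries and 60754 entries, of which 92 were spike-in entries that summed to 0 and were left out. Per the submitters' processing notes, STAR 2.7.9a, Picard, RSEM and GRCh38 were used. The annotation release is not given in the sources used here. The labels name a SMARTER kit and the study's methods a stranded mRNA kit, and the study's text counts 1 KO library fewer than the table holds. The fits kept all 9 libraries, and alternatives dropped a single library at a time.

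Expected counts were rounded and tested with edgeR 4.0.16 (TMM, filterByExpr, quasi-likelihood F-test, Benjamini-Hochberg adjustment, threshold 0.05) in R 4.3.3, separately for KO (both clones) against WT, each clone against WT and 11H1 against 14B5, with no covariate. CPM used TMM-scaled library sizes. DESeq2 1.42.0 and limma 3.58.1 were alternatives. Library totals ranged from 32347779 to 60272245, and intervals cover counting error only. Levels per length used GENCODE v29 exon lengths. The fits were tested on simulated data. The members and the gene lists were chosen with earlier results of these data known, so no list is independent evidence. Named were the members, up to 3 rises and 3 falls with a mean of at least 1 CPM from the lists of E proteins, BMP receptors and SMADs and GFI1 partners, 8 genes set by name, the 5 genes most like each member and neighbours within 1000000 bases. *DYRK1A* was among the genes set by name, but its level is not reported here. A few genes of the lists are not reported here. Genes of other lists are marked as chosen after seeing values. Same-numbered libraries did not deviate together (correlations from −0.145 to 0.0581), so replicate numbers were not used to pair them.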

Additional observations from a re-analysis of the deposited data

Results flagged for a closer look

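*ID2* and *ID3* were flagged because the KO clones differed by a test of the difference itself. The log2FC of 11H1 against 14B5 was −0.51 for *ID2* (edgeR adjusted p = 3.34e-06) and −0.51 for *ID3* (edgeR adjusted p = 0.00457). For each gene, all 3 libraries of 11H1 lay below all 3 of 14B5. For *ID2* both clones lay above WT, by 0.36 and 0.86 on the log2 scale, and for *ID3* 11H1 lay below WT (−0.41) and 14B5 slightly above it (0.09). Since 63.7% of all genes tested were called between the clones, such a difference was common in these libraries. No KO library stood apart from the other 5 for any of the 5 genes by Dixon's test. That test pooled both clones, so for *ID2* and *ID3*, whose clones differed, it could hardly flag a library within a clone.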

How the results depend on the processing

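The *ID2* and *ID3* differences between the clones kept their direction and stayed past the threshold in all 13 alternatives, with log2FC from −0.55 to −0.47 for *ID2* and from −0.60 to −0.42 for *ID3* (adjusted p from 0.00153 to 0.0205). *ID1* and *GFI1* stayed short of it in the same 13 (adjusted p from 0.0598 to 0.769 and from 0.132 to 0.682). *ID4* gave no value between the clones in the fits reported, nor in any contrast at a minimum of 10 counts. The fit of 3 groups with a shared spread called 10245 genes between KO and WT against 5471, because the difference between the clones no longer counts as spread within KO, and gave −8.72 for *ID4*. The fitted log2FC of *ID4* rests on 8 KO counts and moved the most: leaving out a library gave −8.76 to −7.98 for KO, −7.64 to −7.08 for 11H1 and −11.87 to −9.66 for 14B5, where DESeq2 gave −10.51 and limma-voom −9.51. Leaving out a library gave 0.57 to 0.69 for *ID2* between KO and WT. With the replicate block, KO against WT had 3937 calls and *ID2* a log2FC of −0.51 between the clones, and the block changed no call of a member tested between the clones. The counts of called genes between KO and WT ranged over the alternatives from 6 to 13 for BMP receptors and SMADs, 2 to 12 for GFI1 partners, 2 to 7 for the TGF-beta branch and 7 to 14 for E protein targets. Over all genes the calls ranged from 3677 to 10245 in the same alternatives. Depth limits *ID4* in KO cells, where 3 counts are worth 0.0502 to 0.0913 CPM.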

Other observations

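Immediate-early genes, which growth signals switch on within minutes, were listed because several ID genes respond to serum in the same time. Of 22 listed, 19 were tested between KO and WT and 10 were called, 8 higher and 2 lower, with a median log2FC of 0.24 against 0.02 over all genes and 32.0% of all genes called. By clone, 13 of 18 were called in 11H1 and 11 of 18 in 14B5 against WT, where 64.6% and 53.5% of all genes were. Named after their values were seen, *KLF6* was at 11.0, 10.5 and 11.3 CPM in WT, 21.1, 19.2 and 18.7 CPM in 11H1 and 33.6, 33.2 and 32.5 CPM in 14B5, and its groups did not overlap. The antiproliferative gene *BTG2* rose by a log2FC of 1.27, whereas the AP-1 gene *FOSL2* fell by 1.15 on the log2 scale and *EGR1* by 0.65. *EGR1* is also in the list of reported GFI1 targets.

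The extracellular BMP regulator *BMPER*, named after its values were seen, was at 88.3, 88.4 and 98.2 CPM in WT, 43.0, 43.5 and 43.1 CPM in 11H1 and 14.3, 13.0 and 13.0 CPM in 14B5. Its log2FC between 11H1 and 14B5 was 1.69 (edgeR adjusted p = 9.07e-10). On average its order of groups, with WT highest and 14B5 lowest, was the opposite of that of *ID2*. Most of the BMP receptor and SMAD genes that fell had this order too, among them *SMAD1*, *SMAD6*, *SMAD7* and *ACVR2A*. The others, *SMAD5*, *BMPR1A* and *ENG*, were lowest on average in 11H1, as were *BMP6*, *FST* and *ID1*. Between the clones, *SMAD7*, *ACVR2A*, *ENG* and *ID1* were not called (edgeR adjusted p = 0.0616, 0.168, 0.233 and 0.260).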
